A study of Mus musculus with 5 samples.

Results

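Conventional type 2 dendritic cells (cDC2s) of CT26 tumours were examined, taken as the 477 cells that the authors' deposited annotation calls cDC2 among 8987 CD45+ cells of 1 library. They made up 5.31% of the cells (exact Clopper-Pearson 95% interval 4.85 to 5.79), 50.7% of the 940 cells annotated cDC2, cDC1 or actDC, and 30.4% of the 1571 cells in the 5 dendritic cell (DC) classes. CT26 is a colon carcinoma line of BALB/c origin, and the tumours were grown under the skin of BALB/c mice for 12 days. The label gives no treatment, and the library's name contains the word vehicle. The number of mice behind the library is not given in the sources used here. Live CD45+ cells were sorted and profiled with droplet 3′ RNA sequencing, which counts molecules by their molecular identifiers (UMIs). The whole series holds 31617 cells, not counting those whose barcode was shared between 5555 libraries. The other cDC2s set beside those of CT26 came from 5555 melanomas in C57BL/6 mice 4 days after subcutaneous injection. There were 379 such cells in the Ptgs+/+ library, 523 in the Ptgs-/- library and 406 in a Ptgs-/- library whose mice had been depleted of NK cells with anti-NK1.1 (clone PK136) together with anti-Asialo GM-1.

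Dendritic cells take up antigen and show it to T cells. In the mouse, cDC2s depend on the transcription factor IRF4 and carry SIRPα and CD11b, and they are known mainly for presenting peptides on MHC class II to CD4+ T cells. The cDC1 subset depends on IRF8 and BATF3, carries XCR1, and is known for cross-presenting antigen on MHC class I. Inflamed tissue also draws in monocytes, some of which take on DC features, and such cells share several surface markers with cDC2s.

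The CT26 library held 14 annotated classes, of which cDC2, cDC1 (351 cells), moDC (427, read here as monocyte-derived DCs), actDC (112, activated CCR7+ DCs) and pDC (204, plasmacytoid DCs) are DC classes. The other 9 are 3 monocyte classes, 3 tumour-associated macrophage classes (TAM 1 to 3), NK cells, T cells and proliferating cells. A cDC2 had a median of 5908 UMIs and 2036 genes, against 6871 UMIs and 2138 genes for a cDC1 and 1515 UMIs and 848 genes for a moDC. Median mitochondrial shares were 2.20%, 2.18% and 2.34% in cDC2s, cDC1s and moDCs. At least 1 UMI of the lineage genes Cd3e (T cells), Ncr1 (NK cells), Cd79a (B cells), C1qa (macrophages) and S100a8 (neutrophils) was found in 69 of 477 cDC2s, 51 of 351 cDC1s and 110 of 427 moDCs. Levels are means over the cells of a class of CPM, the UMIs of a gene scaled to a common total per cell. Folds are log2 ratios of these means after adding 5 CPM, and a gene is called higher or lower when its means differ by 2-fold or more. With 1 library there is no test and no p-value. All classes also come from the same grouping of the same cells, so a class set against another is a description, and all intervals cover counting error only.

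The label was checked against marker genes. The annotation was made on the same cells, so this is a description. Both defining markers had their highest mean in cDC2s, and TAM 1 was within 2-fold of it for H2-DMb2. Cd209a, which encodes a mouse homologue of the lectin DC-SIGN, averaged 749 CPM in cDC2s, 23.9 in cDC1s, 29.1 in moDCs, 9.01 in actDCs and 112 in pDCs, with a range from 0.721 (T cells) to 146 (TAM 1) over the 9 other classes. H2-DMb2, a chain of the peptide editor H2-DM, averaged 404 CPM in cDC2s, 193 in cDC1s, 46.9 in moDCs, 42.3 in actDCs and 34.5 in pDCs, with a range from 2.71 (Proliferating cells) to 331 (TAM 1) over the 9 other classes. The summed level of the 16 cDC2 markers was highest in cDC2s, at 3877 CPM, ahead of TAM 1 at 3094, moDCs at 1877 and cDC1s at 503. This sum includes the 2 defining markers, at 749 and 404 CPM in cDC2s and 146 and 331 in TAM 1. Its lead over TAM 1 is therefore not separate from those 2 genes. Esam and Dtx1, markers of the Notch2-dependent cDC2s of spleen, had 0 UMIs. Such a count allows up to 0.629% of cDC2s with a UMI and sets no limit on the share of cells that express the gene. The 10 markers shared by DCs summed to 909 CPM in cDC2s, 1147 in cDC1s and 178 in moDCs and, in TAM 1, the class next to cDC2s on Cd209a and H2-DMb2, 273. Zbtb46, a transcription factor of conventional DCs, averaged 35.9 CPM in cDC2s, 63.3 in cDC1s and 5.25 in TAM 1, and had 0 UMIs in moDCs. Its level was therefore at least 8.08-fold higher in cDC2s than in moDCs, with 3 counts over the class as the limit.

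Lymphocyte genes were low in cDC2s, and monocyte genes were intermediate. Macrophage markers summed to 775 CPM, against 294 in cDC1s, 8852 in moDCs and 1848 in TAM 1. Monocyte markers summed to 6893 CPM in cDC2s, between the 2527 of cDC1s and the 14292 of moDCs. NK cell markers reached 421 CPM in cDC2s against 19415 in NK cells, and T cell markers 187 against 4920.2 in T cells. Of 8 B cell markers, 6 had 0 UMIs in cDC2s. In moDCs the leading genes, among them Lgmn, Hmox1, Cd36 and Abca1, included none of the markers listed for any class, and their neutrophil marker sum, 1530.1 CPM, was the highest of the 14 classes (cDC2s 61.9). The name moDC is the authors' and is used as such. How far these differences in depth and in markers of other lineages enter each comparison with moDCs was not tested.

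**Figure D1:**
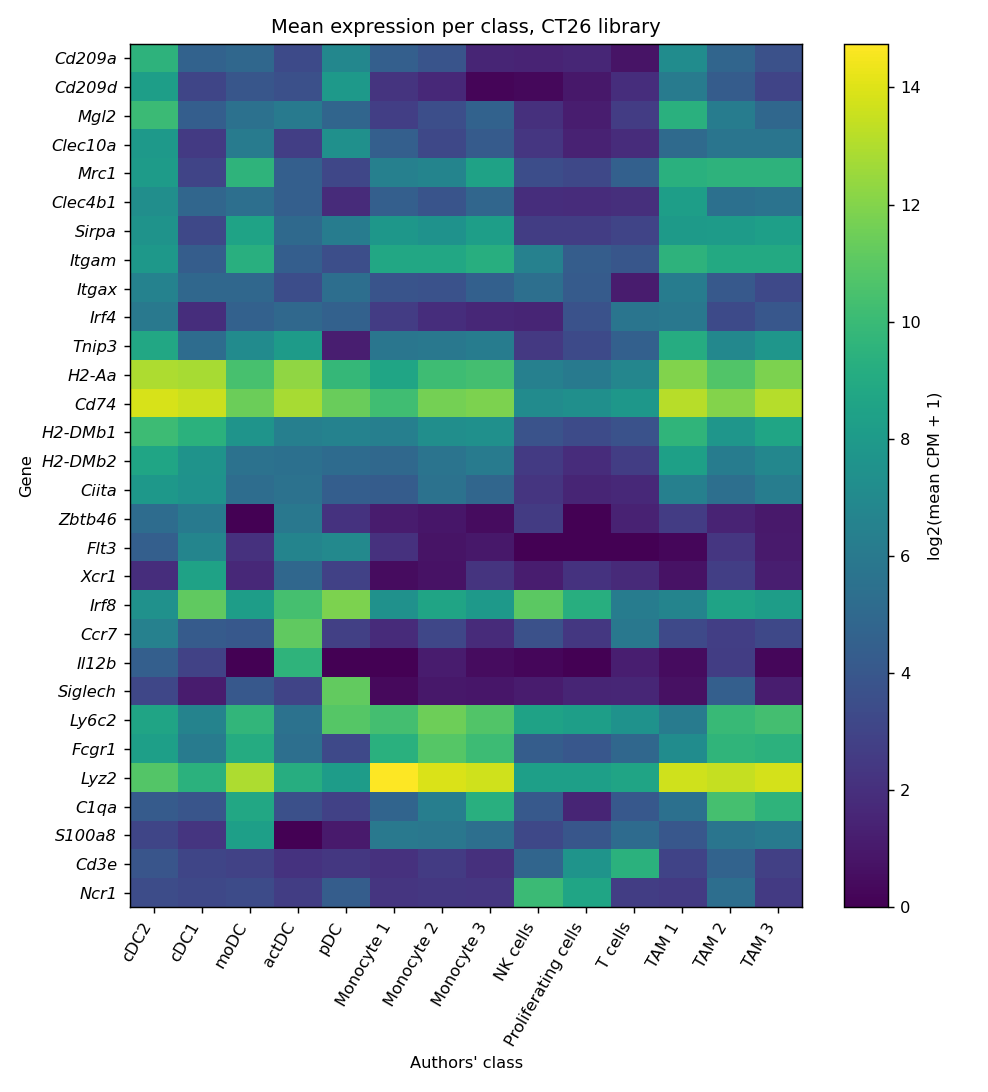
Mean level of lineage and list genes in the 14 classes of the CT26 library, as log2(mean CPM + 1), with cDC2s in the first column and genes in rows. Cd209a is brightest in cDC2s (749 CPM, against 146 in TAM 1), class II genes are bright in cDC2s, cDC1s and TAM 1, and Xcr1 is dim in cDC2s.

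MHC class II genes had the highest means of the 14 classes in cDC2s for H2-Aa, H2-Ab1, H2-Eb1, Cd74, H2-DMa, H2-DMb1 and H2-DMb2, and class II promoters are shown because genes of this family are known to share a control module. Class II promoters are known to hold a conserved set of boxes that ends in an inverted CCAAT box, the binding site of the factor NF-Y, and the coactivator CIITA is recruited to the assembled module. The windows below come from the RefSeq promoter table (build GRCm38.p6, a C57BL/6 genome and not that of BALB/c), read 5′ to 3′ on the gene's own strand. Capitals mark the motif GATTGG, an extended inverted CCAAT box.
H2-Aa: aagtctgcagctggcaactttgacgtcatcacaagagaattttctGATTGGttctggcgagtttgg
H2-Eb1: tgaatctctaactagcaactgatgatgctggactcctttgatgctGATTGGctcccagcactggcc
H2-DMb1: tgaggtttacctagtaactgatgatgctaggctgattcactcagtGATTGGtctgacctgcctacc
H2-DMb2: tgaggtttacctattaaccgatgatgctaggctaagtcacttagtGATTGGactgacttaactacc
H2-Oa: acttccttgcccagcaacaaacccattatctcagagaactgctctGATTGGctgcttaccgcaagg
H2-Ob: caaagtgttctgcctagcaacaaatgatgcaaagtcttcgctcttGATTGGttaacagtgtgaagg
They lie at chr17:34287852-34287917 (H2-Aa, minus strand), chr17:34305762-34305827 (H2-Eb1, plus), chr17:34153084-34153149 (H2-DMb1, plus), chr17:34145113-34145178 (H2-DMb2, plus), chr17:34092290-34092355 (H2-Oa, plus) and chr17:34238802-34238867 (H2-Ob, plus). The 6 shown are those of the I-A, I-E, H2-DM and H2-O chains with the motif within 91 bases of the start, where it began 44 to 91 bases before the gene. It began 101 bases before H2-Eb2, and 199 bases before H2-DMa in 1 of the 2 promoters of that gene, and these windows are not shown. H2-Ab1 and Cd74, highest in cDC2s as well, had no entry in the table. Of the 15 genes in the class II list, 11 had a promoter in the table and 8 of those held GATTGG on the gene's strand. Of all 32851 promoters of this length in the table, 8.71% held it on the gene's strand and 16.1% on either strand. It was not found in the windows of Cd209a, Cd209d, Mgl2 or Irf4, which says only that these letters are not in those windows.

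Class II expression in cDC2s was close to that of cDC1s and several-fold above that of moDCs. Cd74, the invariant chain that escorts class II through the cell, averaged 14679 CPM in cDC2s, 11947 in cDC1s, 2731 in moDCs, 7308 in actDCs and 2605 in pDCs, with a range from 138 (NK cells) to 9046 (TAM 1) over the 9 other classes. H2-Aa, the I-A alpha chain, averaged 7777 CPM in cDC2s, 7176 in cDC1s, 1378 in moDCs, 5058 in actDCs and 897 in pDCs, with a range from 65.8 (Proliferating cells) to 4005 (TAM 1) over the 9 other classes. Against moDCs the UMI ratio of H2-Aa was 5.01 (95% interval 4.71 to 5.34), and against cDC1s it was 1.12 (95% interval 1.10 to 1.14). Of the 12 class II list genes that passed the filter (detected in 5% or more of the cells of one of the classes), 2 were higher in cDC2s than in cDC1s and 0 were lower, with a median log2 fold of 0.30. The background in this comparison was 6.79% of 8113 genes higher and 5.68% lower, with a median of 0.03 over all genes. The 2 were H2-DMb2, at a log2 fold of 1.05, and Ctss, the protease that trims the invariant chain, at 1.48. Against moDCs 10 of 12 were higher and 1 was lower, with a median of 2.44, where 6.18% of 7363 genes were higher and 9.96% lower, with a median of -0.10. The balance over all genes depended on the scale: with differences of mean log2(CPM + 1) per cell in place of log2 ratios of means, 2915 genes were higher and 80 lower than in moDCs, whose cells were shallower, and the class II genes kept their direction.

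The genes that edit class II peptides followed the same order. H2-DMa averaged 1112 CPM in cDC2s, 686 in cDC1s and 321 in moDCs, and H2-DMb1 averaged 1101, 670.3 and 197 in the same order of classes. TAM 1 came closest outside the DCs, with 1022 CPM of H2-DMa and 785 of H2-DMb1. Ciita, which encodes the coactivator named above, was also highest in cDC2s, at 228 CPM, against 183 in cDC1s, 38.03 in moDCs and 86.1 in TAM 1. The H2-DM antagonists H2-Oa and H2-Ob were low: 28.7 and 18 CPM in cDC2s, 22.5 and 40.3 in cDC1s, and 5.87 CPM of H2-Ob with 0 UMIs of H2-Oa in moDCs. The lower gene in cDC2s than in moDCs was Lgmn, an asparagine endopeptidase of the lysosome, at 92.4 against 2498 CPM. Of the 50-base stretches in the last 500 transcript bases of H2-DMb1, 27.4% also occur in H2-DMb2, so some reads from the H2-DMb1 end may be shared. In the reverse direction, for the end of H2-DMb2, the share was 0%. MHC class I and cross-presentation genes differed less: against cDC1s 0 of 19 were higher and 3 lower in cDC2s, namely Wdfy4 (needed for cross-presentation by cDC1s) at -2.64, Rab43 at -1.45 and Psmb9 at -1.12, and against moDCs 1 of 19 was higher (Psmb8, 1.32). Over all genes 6.79% were higher and 5.68% lower than in cDC1s, and 6.18% were higher than in moDCs.

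Surface C-type lectins, which bind sugars on microbes and self glycoproteins, were mostly higher in cDC2s than in cDC1s. Of 17 list members that passed, 13 were higher in cDC2s than in cDC1s and 2 were lower (median log2 fold 2.76). Over all genes 6.79% were higher and 5.68% lower. Mgl2, a galactose-type lectin also called CD301b, averaged 1060.2 CPM in cDC2s, 19.8 in cDC1s, 44.9 in moDCs, 64.03 in actDCs and 26.8 in pDCs, with a range from 1.23 (Proliferating cells) to 664 (TAM 1) over the 9 other classes. Its UMI ratio was 63.8 (95% interval 47.6 to 87.6) over cDC1s and 21.9 (95% interval 15.7 to 31.5) over moDCs, while TAM 1 stood within 2-fold of cDC2s. Clec10a (CD301a) averaged 251 CPM in cDC2s, 4.70 in cDC1s, 69.5 in moDCs, 5.56 in actDCs and 171 in pDCs, with a range from 1.68 (Proliferating cells) to 52.3 (TAM 2) over the 9 other classes. Cd209d, a neighbour of Cd209a, averaged 310.0 CPM in cDC2s, 7.44 in cDC1s, 14.7 in moDCs, 11.3 in actDCs and 243 in pDCs, with a range from 0.138 (Monocyte 3) to 68.9 (TAM 1) over the 9 other classes, so pDCs were close to cDC2s on both of these genes. Mrc1, the mannose receptor, was 267 CPM in cDC2s, 7.07 in cDC1s and 771 in moDCs. The 2 lectins lower in cDC2s than in cDC1s were Clec9a, a receptor for dead cells, at 13.4 against 178 CPM, and Ly75, at 5.002 against 26.5.

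Against moDCs the lectins divided. Of 16 that passed, 7 were higher in cDC2s and 5 lower (median 0.05), where 6.18% of all genes were higher and 9.96% lower. The 7 were Cd209a (4.47), Mgl2 (4.42), Cd209d (4.00), Cd209e (2.18), Clec4b1 (1.81), Clec10a (1.78) and Clec9a (1.35). Those lower were Clec4d (-3.58) and Clec4e (-3.20, the sensor Mincle), Clec4a1 (-1.88), Mrc1 (-1.51) and Clec12a (-1.44). For Mrc1 and Clec12a the sign turned when mean log values per cell were compared in place of means. In the last 500 transcript bases, 8.52% of the 50-base stretches of Mgl2 occur in Clec10a and 13.8% in the reverse direction, and 0% are shared by Cd209a with Cd209c, Cd209d or Cd209e.

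**Figure D2:**
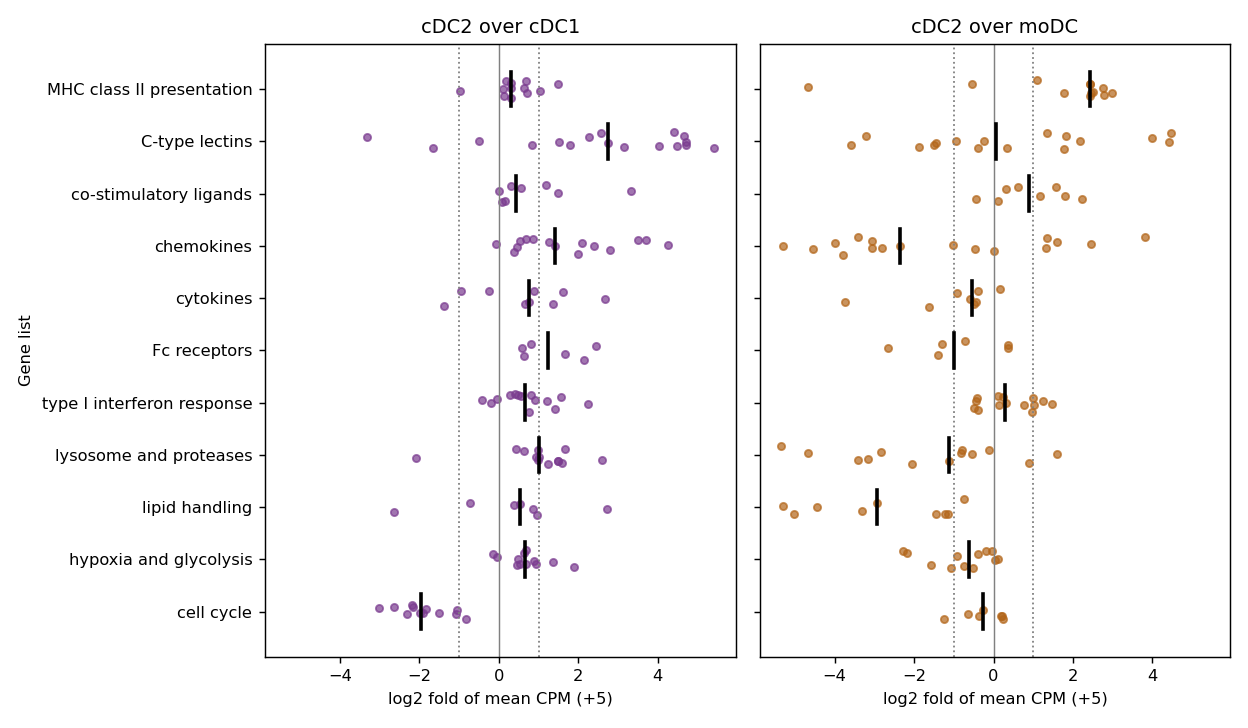
Log2 folds of cDC2s over cDC1s (left) and over moDCs (right) for members of 11 gene lists that passed the filter; each dot is a gene, the black bar is the list's median and dotted lines mark 2-fold. The class II median is 0.30 over cDC1s and 2.44 over moDCs, the chemokine median 1.42 and -2.35, and the cell cycle genes lie to the left over cDC1s.

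Among lineage transcription factors, Irf4 was higher and Irf8 lower in cDC2s than in cDC1s. Irf4 averaged 60.7 CPM in cDC2s, 2.78 in cDC1s, 23.1 in moDCs, 30.3 in actDCs and 22.7 in pDCs, with a range from 1.86 (NK cells) to 58.5 (TAM 1) over the 9 other classes. T cells had 52.96, so TAM 1 and T cells were close to cDC2s on this gene. Irf8 averaged 178 CPM in cDC2s, 2301 in cDC1s and 289 in moDCs. Of 22 factors that passed against cDC1s, 7 were higher in cDC2s and 5 lower. The higher ones included Zeb2 (3.46), a repressor needed for monocytes and pDCs, Irf4 (3.08), Tcf4 (2.11), Cebpb (1.49), Cebpa (1.48) and Irf2 (1.43). The lower ones were Irf8 (-3.66), Id2 (-2.86), Zfp366 (-2.15), Batf3 (-2.08) and Bcl6 (-1.31). Against moDCs 3 of 21 were higher in cDC2s, namely Zbtb46 (3.03), Bcl11a (2.64) and Irf4 (1.23), and 7 were lower, among them Cebpb, a factor of myeloid cells, at 156 CPM in cDC2s against 1219 in moDCs. For Klf4, Bcl6 and Id2, 3 of the 7, the sign turned with mean log values per cell. Over all genes, 6.79% were higher and 5.68% lower than in cDC1s, and 6.18% and 9.96% than in moDCs.

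Surface markers used to gate cDC2s were less selective. Sirpa averaged 188 CPM in cDC2s, 8.14 in cDC1s and 380.5 in moDCs. Itgam, which encodes CD11b, averaged 234, 19.4 and 639 CPM in the same 3 classes and 749 in TAM 1. Both means were above those of cDC1s and below those of moDCs. Itgax (CD11c) was highest in cDC2s, at 90.0 CPM, with TAM 1 next at 70.9. Flt3, the receptor that maintains conventional DCs, was lower in cDC2s (21.2 CPM) than in cDC1s (103) or actDCs (100.5), and 3.33 in moDCs. Xcr1 was 2.76 CPM in cDC2s against 366 in cDC1s, and Csf1r, the receptor of the macrophage growth factor CSF1, was 139.6 against 7.69 in cDC1s and 259 in moDCs.

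Genes proposed to divide cDC2s into 2 states were unevenly covered. Of the 8 cDC2A genes, which mark cells of the Tbx21-linked state, 2 passed the filter against cDC1s, Ltb and Nr4a3, at 186 and 128 CPM in cDC2s against 42.9 and 49.3 in cDC1s. Tbx21 itself had a UMI in 1.89% of cDC2s and Clec4a4 in 0.210%. Of the 7 cDC2B genes that passed against cDC1s, 4 were higher and 1 lower in cDC2s. The higher ones were Cd209a, Mgl2 and Clec10a, which are also in the lectin list, and Cx3cr1, at 27.8 CPM in cDC2s against 2.50 in cDC1s, and the lower one was Cd36. Against moDCs 3 of the 7 were higher and 3 lower (median -0.65), and against all other cells 3 were higher and 2 lower (median -0.20). All-gene shares were 6.79% higher and 5.68% lower against cDC1s, 6.18% and 9.96% against moDCs, and 2.24% and 6.08% against all other cells.

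Co-stimulatory ligands, which deliver the second signal to T cells, were present at moderate levels. Of 8 that passed, 3 were higher in cDC2s than in cDC1s and 0 lower: Tnfsf9 (3.34), Cd80 (1.49) and Cd40 (1.18). Tnfsf9, the ligand of 4-1BB, averaged 105 CPM in cDC2s, 5.93 in cDC1s, 18.5 in moDCs, 87.8 in actDCs and 7.06 in pDCs, with a range from 2.97 (Monocyte 1) to 31.4 (TAM 1) over the 9 other classes. This was the highest mean of the 14 classes, with actDCs close behind. Against moDCs 4 of 8 were higher, namely Tnfsf9, Icosl (1.79), Cd40 (1.57) and Cd48 (1.18), and 0 lower. Over all genes, 6.79% were higher and 5.68% lower than in cDC1s, and 6.18% and 9.96% than in moDCs. Cd86 averaged 205 CPM in cDC2s, 183 in cDC1s, 164 in moDCs and 317 in actDCs. Among inhibitory genes, Cd274 (PD-L1) averaged 33.8 CPM in cDC2s, against 19.5 in cDC1s and 294 in actDCs. Ido1 had 0 UMIs in cDC2s, and Il4i1, an enzyme that degrades aromatic amino acids, averaged 48.3 CPM in cDC2s and 0.243 in cDC1s.

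Chemokines were more abundant in cDC2s than in cDC1s and less abundant than in moDCs. Against cDC1s 9 of 15 were higher in cDC2s and 0 lower, with a median log2 fold of 1.42. The shares over all genes were 6.79% higher and 5.68% lower. Against moDCs 5 of 17 were higher and 10 lower, with a median of -2.35, where 6.18% of all genes were higher and 9.96% lower. Ccl17, a ligand of CCR4, averaged 97.5 CPM in cDC2s, 0.307 in cDC1s, 2.30 in moDCs, 618 in actDCs and 1.47 in pDCs, with a range from 0 (Proliferating cells) to 40.9 (TAM 1) over the 9 other classes, and 10.7% of cDC2s had a UMI of it. With 292 UMIs in cDC2s against 1 in cDC1s and 1 in moDCs, the UMI ratios were 254 (95% interval 45.3 to 10081) and 68.02 (95% interval 12.1 to 2696). Cxcl10, a CXCR3 ligand induced by interferons, averaged 638 CPM in cDC2s, 88.1 in cDC1s and 249 in moDCs. Cxcl9, another CXCR3 ligand, was level between cDC2s and cDC1s, at 268 and 282 CPM. The 5 higher in cDC2s than in moDCs were Ccl17 (3.81), Ccl22 (2.47), Ccl5 (1.60), Cxcl10 (1.34) and Cxcl9 (1.33). The lower ones included the monocyte attractants Ccl2 (-3.42) and Ccl7 (-4.54), and Ccl24 (-5.31) and Cxcl2 (-2.35).

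Of chemokine receptors, Ccr2, which brings monocytes from the blood, was detected in 91.4% of cDC2s, at 798 CPM, against 526 in cDC1s and 1258 in moDCs. Against cDC1s 6 of 9 receptors were higher in cDC2s and 2 lower (Xcr1 and Cxcr3). The higher ones included Ccr1 (3.24), Cx3cr1 (2.13), Ccr7 (2.07), Ccr6 (1.35) and Cxcr4 (1.05). Against moDCs 2 of 7 were higher (Ccr6 and Ccr7) and 3 lower (Cxcr4, Ccr1 and Cx3cr1), of which Ccr1 and Cx3cr1 turned in sign with mean log values per cell. The all-gene shares were 6.79% higher and 5.68% lower against cDC1s, and 6.18% and 9.96% against moDCs. Ccr7, which guides DCs to lymph nodes, averaged 89.4 CPM in cDC2s against 2251 in actDCs. Among cytokines Il1b was the most abundant in cDC2s, at 2514 CPM, against 1602 in cDC1s and 2228 in moDCs, and the UMI ratio over moDCs was 1.28 (95% interval 1.21 to 1.36). Il12b, a subunit of IL-12, was found in 1.68% of cDC2s, and Il12a and Ifnb1 had 0 UMIs.

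Interferon-response genes were slightly above those of cDC1s. Of all genes, 6.79% were higher and 5.68% lower than in cDC1s, and 6.18% and 9.96% than in moDCs. For the 14 type I interferon-response genes the median log2 fold was 0.66 over cDC1s, with 4 higher (Oasl2 2.24, Ifit1 1.57, Ifit3 1.42 and Rsad2 1.22) and 0 lower. Over moDCs 3 were higher (Ifit3, Usp18 and Isg15) and 0 lower, with a median of 0.28. Isg15, a ubiquitin-like protein, averaged 1094 CPM in cDC2s, 575 in cDC1s and 540.2 in moDCs, while Monocyte 2 had 4036. Of 12 interferon-gamma-response genes, 5 were higher in cDC2s than in cDC1s and 0 lower: Gbp2 (2.23), Gbp7 (1.62), Gbp4 (1.51), Gbp5 (1.23) and Igtp (1.00). These 5 are guanylate-binding or immunity-related GTPases, of which the list is largely made. Its GTPases Gbp3, Irgm1 and Iigp1 were within 2-fold. Of 11 sensors that passed, Tlr2 (2.39), Ddx58 (2.12), Nlrp3 (1.28) and Tlr1 (1.15) were higher in cDC2s than in cDC1s, and Tlr3 (-2.78) and Tlr11 (-2.47) were lower.

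Of 13 lysosome and protease genes, 7 were higher and 1 lower in cDC2s than in cDC1s (median 1.01), and 1 was higher and 7 lower than in moDCs (median -1.12, which became 0.70 with mean log values per cell). Ctsl averaged 34.97 CPM in cDC2s, 24.6 in cDC1s and 1627 in moDCs. Cst3, a cathepsin inhibitor, went the other way, at 6377 CPM in cDC2s, 27187 in cDC1s and 2104 in moDCs. Of 6 Fc receptor genes, 3 were higher and 0 lower in cDC2s than in cDC1s (median 1.24), and 0 were higher and 3 lower than in moDCs (median -1.0, which became 0.17 with mean log values per cell). Fcgr1, the high-affinity IgG receptor CD64, averaged 324 CPM in cDC2s, 69.6 in cDC1s and 535 in moDCs. Lipid-handling genes were low: of 9 that passed against moDCs, 8 were lower in cDC2s and 0 higher (median -2.94), with the scavenger receptor Cd36 at 3.08 CPM in cDC2s against 312 in moDCs and Apoe at 98.5 against 3368. Among the 8, Lipa and Abcg1 turned in sign with mean log values per cell. The all-gene shares for these counts were 6.79% higher and 5.68% lower against cDC1s, and 6.18% and 9.96% against moDCs.

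Prostaglandin genes matter to the wider series, which used tumours with and without the Ptgs genes. Of 10 prostanoid and cAMP genes that passed against cDC1s, 4 were higher in cDC2s and 0 lower: Alox5 (2.65), Ptgs2 (1.72), Nr4a3 (1.29) and Pla2g4a (1.12). Over all genes 6.79% were higher and 5.68% lower. Ptgs2, the inducible cyclooxygenase, averaged 68.8 CPM in cDC2s, 17.3 in cDC1s and 307 in moDCs. Ptger4, the prostaglandin E2 receptor EP4, averaged 73.3 CPM in cDC2s, 36.9 in cDC1s, 66.8 in moDCs and 162 in actDCs. The EP2 gene Ptger2 averaged 1.10 CPM in cDC2s, and Ptger3 had 0 UMIs.

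Proliferation genes were lower in cDC2s than in cDC1s. Of 12 cell cycle genes that passed, 0 were higher and 11 lower (median log2 fold -1.95), and against moDCs 0 of 7 were higher and 1 lower (Pcna, which turned in sign with mean log values per cell). The all-gene shares were 6.79% higher and 5.68% lower against cDC1s, and 6.18% and 9.96% against moDCs. Mki67 averaged 24.4 CPM in cDC2s, 178 in cDC1s and 19.97 in moDCs, and Top2a 16.4, 169.5 and 28.6. With every cell drawn down to 2000 UMIs, so that depth was equal, 3.56% of cDC2s (2.09 to 5.65) and 15.7% of cDC1s had a UMI of Mki67.

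Ranked over all genes detected in 10% or more of the cells of one of the classes, the 10 genes furthest above cDC1s were Mgl2, Clec10a, Cd209a, Cd209d, Mrc1, Pltp, Slamf9, Clec4n, Ccl17 and Clec4a3. Pltp, a phospholipid transfer protein, was 131 CPM in cDC2s against 1.27 in cDC1s, and Slamf9 277 against 8.08. The 10 furthest below included Xcr1, Itgae, Gcsam, Hist1h1b, Pclaf, Plet1, Irf8, Snx22 and Rab7b. Gcsam had 0 UMIs in cDC2s, which is at least 97.6-fold lower than in cDC1s with 3 counts over the class as the limit. Above moDCs the first 10 were Cd209a, Mgl2, Ifitm1, Cd209d, Ccl17, Apod, Kctd14, Cdh1, Zbtb46 and H2-DMb2, with Cdh1 (E-cadherin) at 58.2 against 2.39 CPM. Below moDCs they were Pf4, Hmox1, Ctsl, Ccl24, Cd36, Retnla, Apoe, Hal, Lgmn and Arg1. Retnla and Arg1, genes of alternative macrophage activation, were 29.5 and 2.80 CPM in cDC2s against 1307 and 183 in moDCs.

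Against all other CT26 cells together, 170 genes were higher in cDC2s (2.24% of 7583) and 461 lower (6.08%), with a median log2 fold of -0.09. With mean log values per cell the counts were 942 higher and 110 lower. The first 10 above were Cd209a (4.85), Mgl2 (4.08), Cd209d (4.00), Ifitm1 (3.61), Clec10a (2.96), Il1r2 (2.95), Tnfsf9 (2.71), Cdh1 (2.62), Bex6 (2.61) and Timd4 (2.61). The first 10 below were Pf4, Apoe, Ctsl, C1qa, Arg1, Hmox1, Nkg7, Ccl24, C1qc and Retnla, most of them macrophage genes, with Nkg7 a gene of cytotoxic lymphocytes. In this comparison 10 of 12 class II genes were higher in cDC2s and 1 lower (median 2.09), and 1 of 17 chemokines was higher and 11 lower.

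Few genes stood above every other class at once. Of 7284 genes with a UMI in at least 5% of cDC2s, 11 (0.151%) were 2-fold or more above the class next to them. Cd209a led, with 749 CPM in cDC2s against 146 in TAM 1 and a log2 ratio of 2.32. Ffar2, a receptor for short-chain fatty acids, followed, with 23.3 CPM in cDC2s against 1.60 in moDCs and a log2 ratio of 2.10. Il1r2, the decoy receptor of interleukin-1, was next, with 179 CPM in cDC2s against 48.5 in moDCs and a log2 ratio of 1.78. Ifitm1, an interferon-induced membrane protein, had 634 CPM in cDC2s against 229 in cDC1s, and Timp1, an inhibitor of matrix metalloproteases, 66.2 CPM in cDC2s against 25.7 in TAM 1. The others were Fcor, Cd209c, Rtn1, Bex6, Pi16 and Cd209e, with log2 ratios to the next class between 1.01 and 1.19. Just outside the threshold lay Ctnnd2, at 0.83, and further down Mgl2, at 0.67. Of the 399 list genes measured, 17 had a UMI in at least 5% of cDC2s and their highest mean there. The lists include chosen cDC2 markers, and no share over all genes is given for this count. The class next to cDC2s was TAM 1 for 7, cDC1 for 5, pDC for 3, actDC for 1 and TAM 2 for 1. Of the 17, only Cd209a and Cd209e were 2-fold or more above the next class. Some leads were small, such as Fcgrt (185 CPM against 182 in TAM 2) and Irf4 (60.7 against 58.5 in TAM 1).

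The cDC2s also varied among themselves. The genes with the largest variance relative to their mean, at 2000 UMIs per cell, were Lyz2, Ccl5, Cxcl9, Malat1, Gzma, Cxcl10, Il1b, Cxcl2, Ly6a, Cst3, Ccl4, Cd74, Rsad2, Ccl17 and Tmsb4x, which take in chemokines, interferon-induced genes and a granzyme of NK cells. Gzma was found in 5.66% of cDC2s, 5.13% of cDC1s and 3.57% of moDCs, against 91.1% of NK cells, over cells with at least 2000 UMIs (477 cDC2s, 351 cDC1s, 112 moDCs and 794 NK cells), a like low share in the 3 DC classes. Its UMIs were uneven over cDC2s, with a variance over mean of 10.7 and up to 18 thinned UMIs in a cell. Lyz2 was found in 59.96% of cDC2s but also in 40.6% of 254 T cells, which do not make lysozyme. Cd209a had a UMI in 55.3% of cDC2s and in 0.378% of NK cells, and Mgl2 in 51.6% and 0.756%. Median UMIs before thinning were 5908 in cDC2s, 2241 in NK cells and 1706 in T cells.

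Cells were divided by whether they had a UMI of a gene after thinning, and the lists were compared between the 2 sets of cells. Cells without a UMI may still express the gene, and the sets are cells of 1 library, so these values are descriptions. Cd209a and Mgl2 did not go together: Mgl2 was found in 51.5% of the 264 cDC2s with a Cd209a UMI and in 51.6% of the 213 without. Cd209d went with Cd209a, at 34.8% of cells with it and 7.04% without, as did Clec10a, at 40.9% and 19.2%.

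In cDC2s with Cd209a, interferon-response and chemokine genes had lower levels. Of 14 type I interferon-response genes, 0 were higher and 9 lower in cells with Cd209a than in cells without, with a median log2 fold of -1.03, where 2.25% of 4984 genes were higher and 3.55% lower and the median of all genes was 0.03. With another draw of 2000 UMIs the median was -0.69. Isg15 averaged 716 CPM in cells with Cd209a and 1619.7 in cells without, and Rsad2 208 and 563. Of 13 chemokines, 0 were higher and 7 lower, with Ccl2 at 45.5 and 228 CPM. Ly6c2, a monocyte surface protein, was 246 CPM with Cd209a and 545 without, and Zbtb46 39.8 and 16.4. Zbtb46 was the only 1 of 8 shared DC markers that passed to be higher with Cd209a, and 0 were lower (median 0.35). Class II genes did not follow Cd209a (median 0.01), with H2-Aa at 7816 CPM with it and 7559 without.

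In the 246 cDC2s with Mgl2, against the 231 without, other genes differed. Here 1.9% of 4953 genes were higher and 2.24% lower. Ccl17 averaged 197 CPM in cells with Mgl2 and 19.5 in cells without, Cxcl2 852 and 197, Mrc1 413 and 158, and Itgax 134 and 54.1. Ear2, a ribonuclease of eosinophils and some macrophages, had 48 thinned UMIs in cells with Mgl2 and 0 in cells without. Lower with Mgl2 were Ly6c2, at 193 and 578 CPM, and Cd7, at 24.4 and 119. The median of the type I interferon-response list was -0.37 and that of class II genes 0.44. Median UMIs before thinning were 6397 in cells with Mgl2 and 5293 in cells without.

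Division by Fcgr1 was chosen after the values were seen. In the 166 cDC2s with an Fcgr1 UMI, 12 of 14 type I interferon-response genes were higher than in the 311 without and 0 were lower (median 1.70), where 4.26% of 4981 genes were higher and 3.73% lower. Rsad2, an antiviral enzyme, averaged 852 CPM in cells with Fcgr1 and 108 in cells without, Cxcl10 1298 and 304, and Isg15 1982 and 659. In the other direction Ccl17 averaged 24.1 CPM in cells with Fcgr1 and 158 in cells without, and Ccr7 30.1 and 106. Irf4, at 33.1 and 70.7, fell just short of 2-fold after adding 5 CPM. Of 20 lineage transcription factors that passed, 0 were higher and 0 lower with Fcgr1 (median -0.02). Class II was level (median -0.02), and H2-Aa averaged 7337 and 7896 CPM. Monocyte markers differed with Fcgr1 as well: 2 of 9 were higher and 0 lower (median 0.74), and their part in the interferon difference was not tested. A UMI of Fcgr1 was found in 34.8% of cDC2s, against 3.02% of NK cells and 3.94% of T cells.

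**Figure D3:**
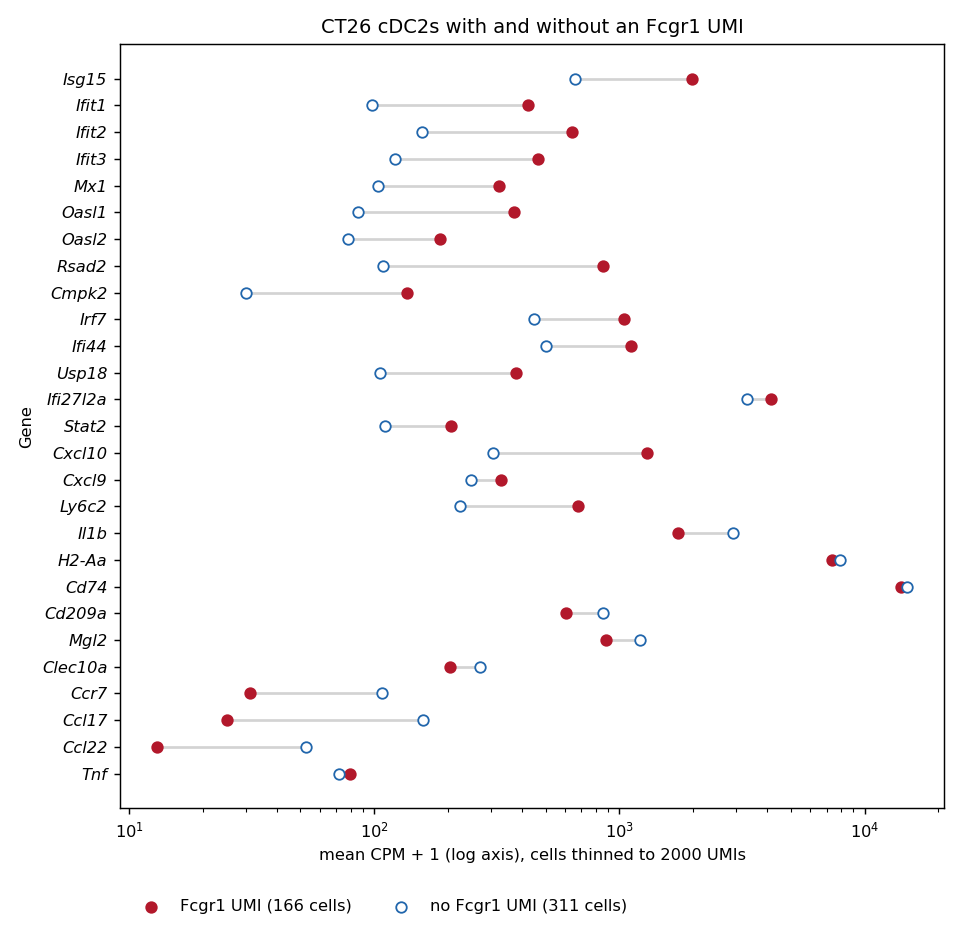
Mean CPM + 1 (log axis, cells thinned to 2000 UMIs) of 27 genes in cDC2s with an Fcgr1 UMI (filled, 166 cells) and without (open, 311 cells). The interferon-response genes in the upper rows lie to the right in cells with Fcgr1, while H2-Aa and Cd74 overlap and Ccl17 and Ccr7 lie to the left.

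A division by Ly6c2, also chosen after its values were seen, went partly the same way. In the 161 cDC2s with it, against the 316 without, 6 of 14 type I interferon-response genes were higher and 0 lower (median 0.98), with 2.73% of 4943 genes higher and 2.71% lower. Fcgr1 was found in 50.9% of cells with Ly6c2 and 26.6% of cells without. Lyz2 averaged 2568 CPM with Ly6c2 and 1361 without, and Il1b 1764 and 2862. Of the 50-base stretches at the 3′ end of Ly6c2, 34.2% also occur in Ly6c1, whose level was 376 CPM with Ly6c2 and 36.4 without, so this pair cannot be told apart fully. NK cells, which carry Ly6c2 themselves, had a UMI of it in 27.6% of cells.

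**Figure D4:**
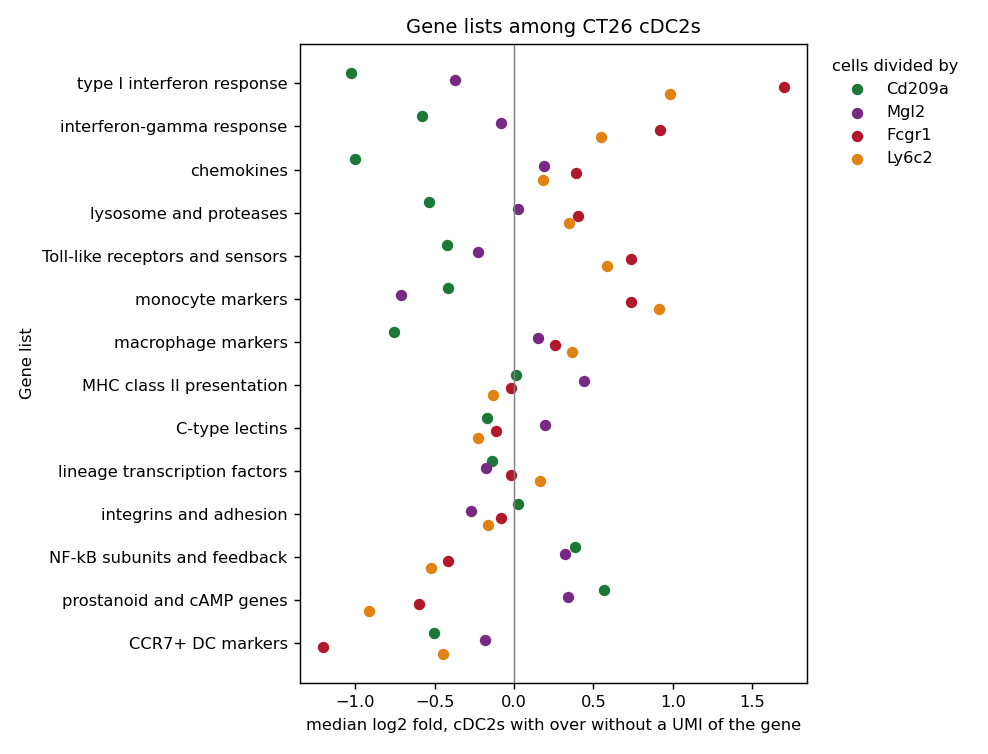
Median log2 fold of 14 gene lists in cDC2s with over without a UMI of Cd209a, Mgl2, Fcgr1 or Ly6c2 (colours). The type I interferon-response list lies at -1.03 for Cd209a and 1.70 for Fcgr1, and the class II list stays within 0.45 of 0 for each of the 4 genes.

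Few cDC2s had a UMI of Ccr7, Mki67 or C1qa. After thinning, Ccr7 was found in 32 cDC2s (6.71%, 4.63 to 9.34), against 5.12% of T cells and 1.76% of NK cells. How much of the T cell share is their own expression was not tested, so it is not read as background. Cd83, an activation marker of DCs, averaged 906 CPM in the cDC2s with Ccr7 and 322 in the 445 without, Cd86 438 and 198, and Cd40 297 and 86.5. Samsn1, a gene of CCR7+ DCs, averaged 391 and 104 CPM, and the chemokine Ccl22 281 and 20.2, with 18 UMIs in each set of cells. Relb, an NF-kB subunit of activated DCs, was close in both, at 78.1 and 62.9 CPM. Mki67 was found in 17 cDC2s (3.56%), against 4.53% of NK cells, and C1qa in 10 (2.10%), against 2.64% of NK cells. Neither share was above that of NK cells. The NK share of Mki67 cannot be read as background, since the Proliferating class had an NK marker sum of 6802 CPM. In cDC2s with Mki67, Birc5 had 6 UMIs and Top2a 3, against 4 and 19 in the 460 without, while Mcm5 had 0 and 9. In those with C1qa, C1qb had 4 UMIs and Cd68 13, against 16 and 227 in the 467 without, while Trem2 had 0 and 9. In sets of 17 and 10 cells 1 UMI is enough to pass the detection filter. A gene can then pass through these cells alone, so no count of list members is given for them. No doublet calling was done.

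The cDC2s of CT26 were last set beside those of 5555 tumours. Strain, tumour line, day and library all differ, so the effects of these cannot be told apart, and the levels are set side by side. The 5555 annotation has a separate cDC3 class, which is not included, and cells whose barcode stood in more than one 5555 library were left out. The 21 genes plotted were chosen, and no count over them is given. Mgl2 averaged 1060.2 CPM in CT26, 74.9 in Ptgs+/+, 851 in Ptgs-/- and 645 in NK-depleted Ptgs-/- tumours. H2-DMb2 averaged 404 CPM in CT26, 146 in Ptgs+/+, 171 in Ptgs-/- and 179 in NK-depleted Ptgs-/- tumours, and Isg15 1094 CPM in CT26, 141 in Ptgs+/+, 92.2 in Ptgs-/- and 60.8 in NK-depleted Ptgs-/- tumours. Cxcl9 averaged 268 CPM in CT26, 4.46 in Ptgs+/+, 15.4 in Ptgs-/- and 4.63 in NK-depleted Ptgs-/- tumours. On the low side, C1qa averaged 17.6 CPM in CT26, 141 in Ptgs+/+, 401 in Ptgs-/- and 297 in NK-depleted Ptgs-/- tumours, Ptgs2 68.8 CPM in CT26, 463 in Ptgs+/+, 208 in Ptgs-/- and 467 in NK-depleted Ptgs-/- tumours and Sirpa 188 CPM in CT26, 532 in Ptgs+/+, 494 in Ptgs-/- and 483 in NK-depleted Ptgs-/- tumours. Cd209a and H2-Aa lay within the 5555 range: Cd209a averaged 749 CPM in CT26, 526 in Ptgs+/+, 892 in Ptgs-/- and 1344 in NK-depleted Ptgs-/- tumours, and H2-Aa 7777 CPM in CT26, 7539.7 in Ptgs+/+, 6011 in Ptgs-/- and 7796 in NK-depleted Ptgs-/- tumours. Barcodes seen in both the CT26 and a 5555 library numbered 23, and 1 of them was a cDC2 in both.

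**Figure D5:**
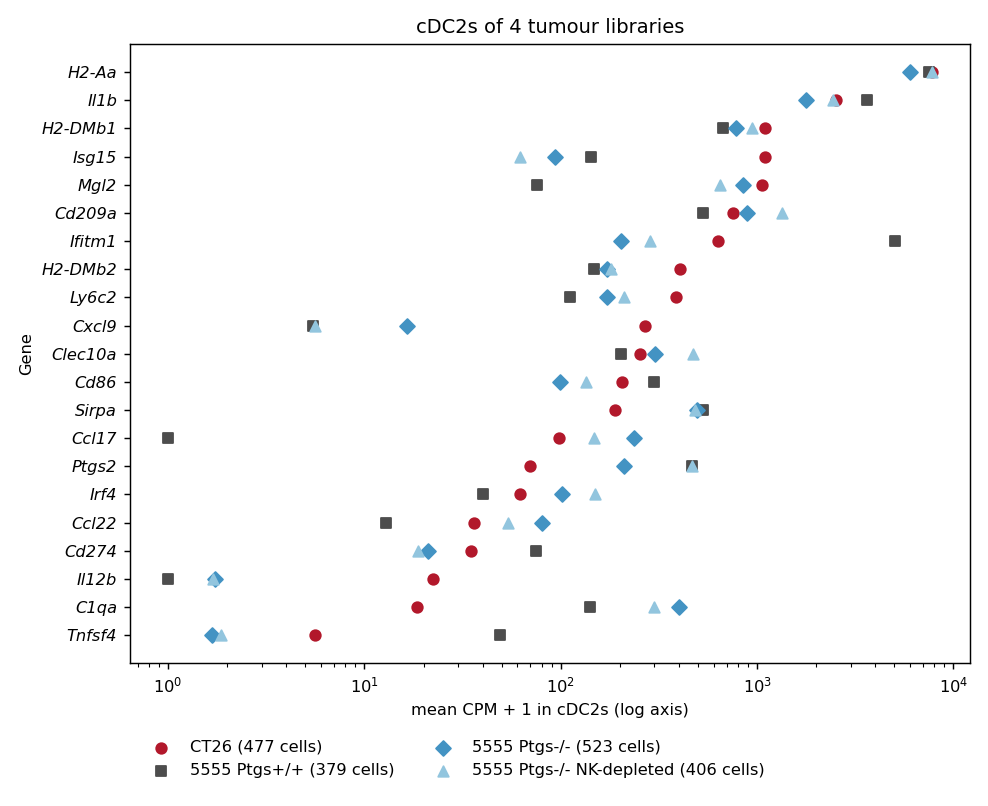
Mean CPM + 1 (log axis) of 21 genes in the cDC2s of CT26 (circles, 477 cells) and of the 3 5555 libraries (379, 523 and 406 cells). Isg15 and Cxcl9 lie to the right in CT26 and C1qa to the left, while H2-Aa spans from 6011 to 7796 CPM over the 4 libraries.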

How the data were processed

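The authors' deposited values were log2(CPM + 1) for each cell and gene. Cell Ranger 3.0.2, Partek and mm10 are named in the submitters' processing notes, and their order and settings are not given in the sources used here. Cells were joined to the deposited annotation by name, and all 8987 had an entry. Raised back to CPM, 99.9323% of values above 0 were whole UMIs within 0.1 UMI plus 0.01%, so UMIs were recovered and depth was known. The library held 39748588 UMIs (median 3822 per cell), and 18 symbols held parts of a UMI and gave no ratio.

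Folds were log2 ratios of mean CPM plus 5, called at 2-fold among genes detected in 5% or more of the cells of one of the classes. UMI ratios have exact conditional binomial 95% intervals and shares have Clopper-Pearson intervals, which cover counting error only. Thinning drew 2000 UMIs per cell from a fixed seed. No doublet caller was run, cells were not re-clustered and free RNA was not subtracted. Analyses used Python 3.11.15, NumPy 2.4.6, SciPy 1.17.1 and pandas 2.3.3. The folds, UMI ratio intervals and thinning were tested on simulated cDC2-sized and cDC1-sized classes, whose cells differed only by depth and counting error. The other steps were not tested in this way.

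The cells and the 37 gene lists were chosen with earlier results of these data known. Genes named were the 2 to 6 leading list members and any that went against them, the 10 highest and 10 lowest per comparison, the genes 2-fold above every class and the 15 most variable; other list members are named to account for counts. Alternatives changed the pseudocount, filter, weighting, scale, centring, depth and cells. The bone marrow-derived DC library was not used here, and some genes that enter the counts are not reported here by name.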

Additional observations from a re-analysis of the deposited data

How the results depend on the processing

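No paired analysis was possible because each group was 1 library and no test was run. The share of cDC2s stayed between 5.31% and 5.35% with other choices of cells. The 10 alternatives moved counts of genes past 2-fold by over 1.5 times as follows. With a pseudocount of 20 CPM, 267 genes were higher and 170 lower in cDC2s than in cDC1s, 217 and 436 against moDCs, and 90 and 246 against all other cells. With differences of mean log2(CPM + 1) per cell, 344 were higher than in cDC1s, 2915 higher and 80 lower than in moDCs, and 942 higher and 110 lower than in all other cells. With cells thinned to 2000 UMIs, 302 were lower than in cDC1s. Without a detection filter 1233 were lower than in moDCs, and with a filter at 10% of cells 478, and 301 against all other cells. A higher pseudocount and a stricter filter reduce such counts by construction, and for the rest the cause was not tested. Of 1004 gene folds and 101 list medians over the 3 comparisons, 624 and 56 moved on the mean-log scale beyond the counting interval (genes) or 1.5-fold (medians), and 135 and 8 on thinning, so sizes hold for the ratio scale. Against moDCs, 23 list genes called lower had positive differences of mean log values: Klf4 0.37, Ppt1 0.61, Ccr1 0.68, Mrc1 0.032, Havcr2 0.21, Cx3cr1 0.12, Clec12a 0.11, Tlr1 0.053, Tlr2 0.12, Id2 0.44, Bcl6 0.30, Irf1 0.19, Itgal 0.28, Cd24a 1.05, Lamp2 0.84, Pgk1 0.43, Hif1a 0.93, Pcna 0.12, Junb 0.18, Nfkbiz 0.45, Il4ra 0.13, Abcg1 0.40 and Lipa 0.37. The medians of lysosome and protease genes (0.70) and Fc receptors (0.17) also turned. Thinned, Ppt1 (0.45), Havcr2 (0.55) and Tgfbr1 (0.12) turned against moDCs, where 112 of 427 cells were deep enough. Of the 60 ranked genes, 60 stayed past 2-fold under 9 alternatives and 56 under the mean-log scale. For divisions within cDC2s, the 30 list medians followed moved by less than 1.5-fold under 3 alternatives chosen after seeing the data (another draw, all UMIs, and cells without a UMI of another lineage); the interferon median ranged from -1.21 to -0.69 for Cd209a and from 1.54 to 2.02 for Fcgr1. One library without replicates limits every value to these cells, and the depth of moDCs limits what can be said of genes low in them.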

Other observations

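Several gene groups not described above separated cDC2s less evenly. For the counts in this section, 6.79% of all genes were higher and 5.68% lower than in cDC1s, and 6.18% and 9.96% than in moDCs. Of 11 NF-kB subunit and feedback genes, 5 were higher in cDC2s than in cDC1s and 0 lower, with a median log2 fold of 0.80. Against moDCs 1 was higher and 1 lower (median 0.06), and the lower gene, Nfkbiz, turned in sign with mean log values per cell. The 5 higher than in cDC1s were Nfkbiz, Nfkbia, Tnfaip3, Nfkbie and Nfkb1, most of them feedback genes of the pathway. Of 12 hypoxia and glycolysis genes, 2 were higher in cDC2s than in cDC1s (Vegfa and Eno1) and 0 lower, and 0 were higher and 4 lower than in moDCs. Among the 4, Pgk1 and Hif1a turned in sign with mean log values per cell. Of 13 immediate-early genes, 2 were higher (Ier3 and Egr1) and 1 lower (Klf2) in cDC2s than in cDC1s, and 0 were higher and 4 lower than in moDCs. Junb, among those 4, turned in sign with mean log values per cell.

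Of 16 growth factor and cytokine receptors that passed, 10 were within 2-fold of cDC1s, 4 were higher in cDC2s than in cDC1s (Csf1r, Csf2rb2, Tgfbr2 and Ifngr2) and 2 lower (Kit and Flt3). Of 17 against moDCs, 2 were higher and 5 lower, of which Il4ra turned in sign with mean log values per cell and Tgfbr1 on thinning. Of 13 integrin and adhesion genes, Itgam and Itgax were higher in cDC2s than in cDC1s, and Itgae (CD103), Cd24a and Itgal were lower. Among regulatory genes, Il4i1, Socs3 and Pvr were higher in cDC2s than in cDC1s and Havcr2 and Cd200 lower. Of 9 cytokines that passed, Osm, Il1rn and Il15 were higher and Il16 was lower.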
